A study of Nasonia vitripennis with 2 samples.

Results

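Short scaffolds of the *Nasonia vitripennis* reference were examined for CpG methylation and for how well bisulfite reads cover them. A short scaffold was a nuclear scaffold whose last listed CpG lies before position 20000 and which holds 20 or more CpGs with at least 10 reads (covered CpGs). There are 2144 such scaffolds among 6181 nuclear scaffolds, and 6183 scaffolds are listed in all. The counts list scaffold names and positions only, so whether a scaffold has a place on a chromosome map was not analysed here. No measured methylation was used to choose the scaffolds, but read depth was, through the requirement of 20 covered CpGs.

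The DNA came from the whole bodies of 1 pool of 50 adult females, at 24 h, of the strain AsymCX, a highly inbred laboratory strain that had been cured of *Wolbachia*. It was sequenced by whole-genome bisulfite sequencing (WGBS-seq) in 2 lanes, whose reads the authors summed into 1 pair of counts per CpG site. Each value is thus an average over all tissues of 50 wasps. There is no replicate, and no value below carries an error between samples or a test. Intervals are 95% Wilson intervals and, like the limit of 3 counts used where a count is 0, cover counting error only. The library was amplified without molecular identifiers, so that several reads can stem from the same molecule. A read is also counted at every CpG it spans. For shares of CpGs, the intervals treat the CpGs of a scaffold as independent, although mCpGs stand in groups on few scaffolds. That grouping is not covered by them.

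In insects with a DNA methylation system, methyl groups sit on the cytosine of CpG dinucleotides, mostly inside the bodies of a subset of genes that are broadly transcribed, and CpGs outside genes are largely unmethylated. Dnmt1 copies the mark after replication and Dnmt3 can set it anew. A methylated cytosine can deaminate to thymine, so stretches methylated in the germ line tend to lose CpGs over generations. Bisulfite turns unmethylated cytosine into uracil, read as T, and leaves methylated cytosine as C. Short scaffolds are stretches that an assembler could not join to their neighbors, and in many assemblies they are rich in repeats. The repeat and gene content of these scaffolds was not tested, since no genome or annotation of this build was used.

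For comparison, the 46 scaffolds longer than 1000000 bp were cut end to end into pieces with the same lengths as the short scaffolds, and the 18288 pieces with 20 or more covered CpGs were kept. Length means the position of the last listed CpG for a scaffold. A covered CpG with more than 10% methylated reads is called an mCpG, and the methylation percentage is the share of unconverted Cs among all reads at covered CpGs. Short scaffolds had a median length of 5363 bp and ranged between 573 bp and 19954 bp, and the pieces had a median length of 5732 bp.

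The short scaffolds hold 3.72% of the CpG sites of all nuclear scaffolds, 2.87% of the covered CpGs and 2.10% of the mCpGs. They hold 11.5% of all unread CpGs, that is, sites with 0 reads. Together they span 13875320 bp and hold 522119 CpG sites, of which 224219 were covered. Their share of the methylated sites thus lies below their share of the sites that could be scored, and their share of unread sites lies far above both.

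Short scaffolds were less methylated than pieces of long scaffolds. On the short scaffolds 2461 of 224219 covered CpGs were mCpGs, or 1.10% (1.06% to 1.14%), against 1.69% (1.68% to 1.7%) in the pieces. The methylation percentage was 0.994% (0.987% to 1.0%) on the short scaffolds and 1.66% in the pieces. The intervals of the short scaffolds, which cover counting error only and not the grouping of mCpGs on few scaffolds, exclude both values of the pieces. At covered CpGs that are no mCpGs, the background level, 0.147% of reads on short scaffolds and 0.163% of reads in pieces were unconverted.

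Methylation was concentrated on few short scaffolds. At least 1 mCpG was found on 168 of 2144 short scaffolds (7.84%, 6.77% to 9.05%), against 24.8% of pieces. Pieces match the short scaffolds in length but not in scored sites. The median short scaffold had 66 covered CpGs and the median piece 218, so a piece had more sites at which an mCpG could be found. The shares per scaffold below rest on fewer covered CpGs in the same way. A share of mCpGs above 10% was reached by 74 short scaffolds (3.45%, 2.76% to 4.31%), against 9.04% of pieces. A share above 50% was reached by 17 short scaffolds (0.793%, 0.496% to 1.27%), against 0.618% of pieces. The shortfall of the short scaffolds was therefore present at the first 2 limits and was not detectable at the third, where the interval of the short scaffolds includes the share of the pieces. The third count depends on the settings. Among scaffolds with 50 or more covered CpGs it was 8 of 1289 short scaffolds (0.621%, 0.315% to 1.22%), against 26 of 15976 pieces (0.163%, 0.111% to 0.238%). With mCpGs set at above 50% methylated reads it was 11 of 2144 short scaffolds (0.513%, 0.287% to 0.916%), against 48 of 18288 pieces (0.262%, 0.198% to 0.348%).

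Among scaffolds with any mCpG, the upper end of the distribution differed between the sets, while the medians were close. The median share of mCpGs was 5.94% on short scaffolds and 5.88% in pieces, the lower quartile was 0.637% on short scaffolds and 0.832% in pieces, and the upper quartile was 23.9% on short scaffolds and 15.0% in pieces. Among scaffolds with at least 1 mCpG, 17 of 168 short scaffolds (10.1%, 6.41% to 15.6%) had more than 50% mCpGs, against 113 of 4539 pieces (2.49%, 2.07% to 2.98%). The 74 short scaffolds with more than 10% mCpGs carried 2136 of the 2461 mCpGs (86.8%), against 65.1% for the corresponding pieces. The 17 with more than 50% carried 29.9% of the mCpGs, against 3.49% for the corresponding pieces. At the other end, 1976 short scaffolds (92.2%) had no mCpG at all, against 75.2% of pieces, which at the median held more covered CpGs.

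The difference in methylation was present in each class of scaffold length. Below 2000 bp, 0.846% (0.730% to 0.981%) of covered CpGs on 603 short scaffolds were mCpGs, against 1.21% in pieces of that length. Between 2000 and 5000 bp the share was 0.884% (0.771% to 1.01%) on 413 short scaffolds and 1.76% in pieces. Between 5000 and 10000 bp it was 1.21% (1.13% to 1.29%) on 587 short scaffolds and 1.66% in pieces. From 10000 bp upward it was 1.12% (1.07% to 1.19%) on 541 short scaffolds and 1.74% in pieces.

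CpG dinucleotides were sparser on the short scaffolds. There were 3.76 CpG sites per 100 bp on short scaffolds and 6.75 per 100 bp in pieces. The median short scaffold had 3.72 CpG sites per 100 bp, and the middle 50% of short scaffolds lay between 2.91 and 4.99. The median piece had 7.14, and the middle 50% of pieces lay between 5.17 and 8.51. Fewer than 3 CpG sites per 100 bp were found on 601 short scaffolds (28.0%, 26.2% to 30%), against 6.61% of pieces.

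Part of this gap lies in long stretches without any listed CpG. Stretches over 500 bp free of CpGs made up 8.52% of the length of short scaffolds and 2.94% of the length of pieces. Whether these stretches are undetermined bases was not tested. Outside these stretches the density was 4.11 CpG sites per 100 bp on short scaffolds and 6.95 in pieces, so the gap remained.

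**Figure D1:**
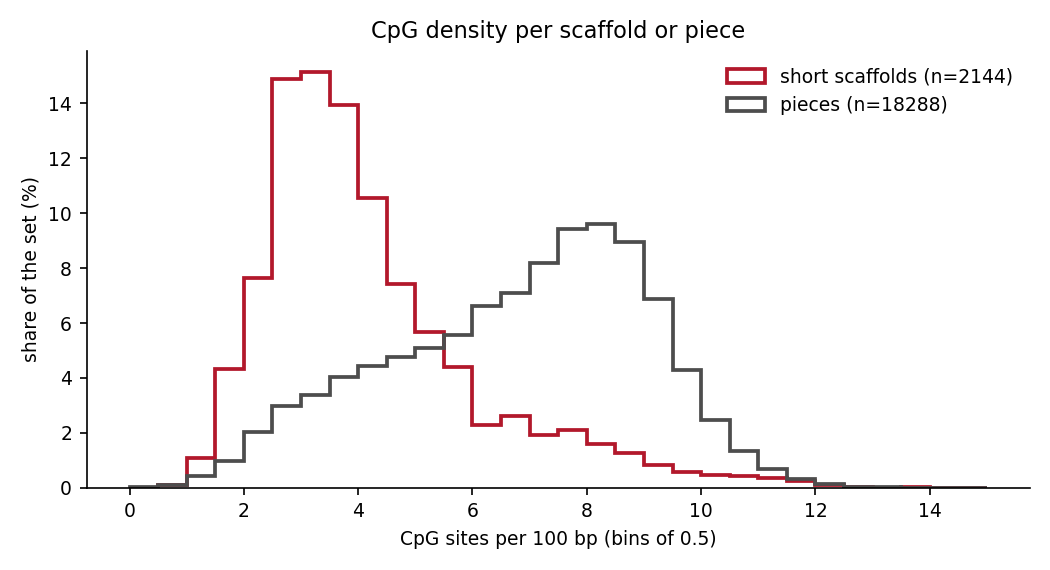
Share of short scaffolds (red) and of equal-length pieces of long scaffolds (gray), in percent of each set, by CpG sites per 100 bp in bins of 0.5. The short scaffolds have their median at 3.72 CpG sites per 100 bp and the pieces at 7.14, and 28.0% of short scaffolds but 6.61% of pieces lie below 3.

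The extremes of CpG density differed in methylation. SCAFFOLD4407 had the highest density, 13.9 CpG sites per 100 bp over 1180 bp. It had 164 CpG sites and 44 covered CpGs, and 1 of 552 reads at them was unconverted. SCAFFOLD3600, with 12.7, and SCAFFOLD5379, with 12.1 CpG sites per 100 bp, followed. Neither held an mCpG: 1 of 1010 reads was unconverted on SCAFFOLD3600, and 0 of 969 on SCAFFOLD5379, which allows up to 0.310%.

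At the other end, SCAFFOLD2024 had 35 CpG sites over 5028 bp, or 0.696 per 100 bp, and 53.7% of its length lay in stretches over 500 bp without a CpG. It held 7 mCpGs among 23 covered CpGs, and 312 of 906 reads (34.4%) were methylated. SCAFFOLD1377 had 0.998 CpG sites per 100 bp and SCAFFOLD2188 had 1.08. Both sparse scaffolds lacked mCpGs, with 0 of 44 covered CpGs on SCAFFOLD1377 (a share of up to 6.82%) and 0 of 34 on SCAFFOLD2188 (up to 8.82%). Both limits lie above the 5.41% of mCpGs on all 118 short scaffolds with fewer than 2 CpG sites per 100 bp. Neither scaffold can thus be set apart from that class.

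Across short scaffolds, the methylated ones were the sparser ones. The median CpG density was 3.79 per 100 bp on the 1976 short scaffolds without an mCpG, 3.04 on the 168 with at least 1, 2.67 on the 74 with more than 10% mCpGs and 2.25 on the 17 with more than 50%. In the pieces the corresponding medians were 7.66, 5.02, 3.50 and 1.8 CpG sites per 100 bp. The order was the same in both sets, and the spread between the classes was narrower on the short scaffolds.

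Because methylated stretches are CpG-poor in both sets, the short scaffolds were also set against pieces of the same density. With fewer than 2 CpG sites per 100 bp, 5.41% (4.89% to 6.0%) of covered CpGs on 118 short scaffolds were mCpGs, against 25% in 288 pieces. Between 2 and 3 it was 2.95% (2.81% to 3.10%) on 483 short scaffolds and 15.5% in 920 pieces. Between 3 and 4 it was 0.633% (0.579% to 0.692%) on 624 short scaffolds and 8.95% in 1357 pieces.

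The gap persisted on denser scaffolds. Between 4 and 5 CpG sites per 100 bp the share was 0.145% on 385 short scaffolds and 5.62% in 1685 pieces. Between 5 and 7 it was 0.154% on 321 short scaffolds and 1.71% in 4458 pieces. At 7 or more it was 0.0570% (0.0289% to 0.112%), or 8 of 14046 covered CpGs, on 213 short scaffolds and 0.146% (0.142% to 0.151%) in 9580 pieces. In all 6 density classes the interval of the short scaffolds, for counting error only, lay below that of the pieces.

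Weighting the pieces to the density classes of the short scaffolds gave 8.69% mCpGs, against 1.10% measured on the short scaffolds. In the same weighting 28.2% of pieces had more than 10% mCpGs, against 3.45% of short scaffolds. With density taken outside the CpG-free stretches, the weighted share of mCpGs in pieces was 8.21%. The low CpG density of the short scaffolds therefore goes with less methylation than the same density does on long scaffolds.

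**Figure D2:**
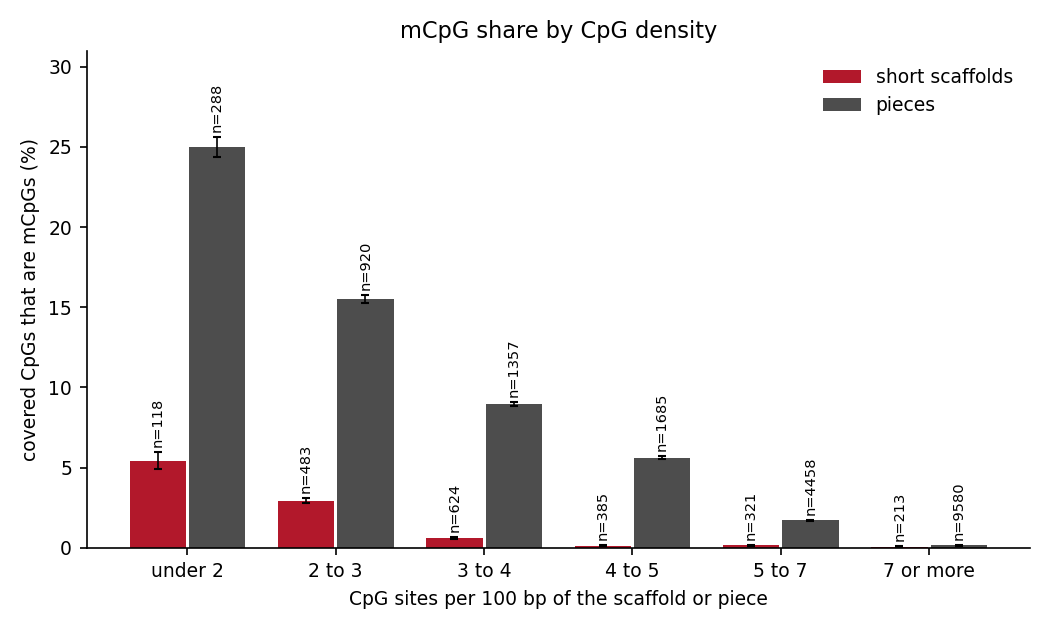
Share of covered CpGs that are mCpGs (percent, vertical axis from 0) on short scaffolds (red, left bars) and in equal-length pieces of long scaffolds (gray, right bars), by class of CpG sites per 100 bp. Error bars are 95% Wilson intervals and n is the number of scaffolds or pieces. The short scaffolds lie below the pieces in every class, with 2.95% against 15.5% between 2 and 3 CpG sites per 100 bp.

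The most methylated short scaffolds show stretches that are methylated nearly throughout, many of them beside stretches nearly free of methylated reads. Of the scaffolds with 50 or more covered CpGs, SCAFFOLD1214 had the highest share of mCpGs, 80 of 114 (70.2%, 61.2% to 77.8%). SCAFFOLD5124 followed with 84 of 120 (70.0%), and SCAFFOLD5034 with 59 of 85 (69.4%). Their median mCpG had 83.7% methylated reads on SCAFFOLD1214, 75% on SCAFFOLD5124 and 83.6% on SCAFFOLD5034.

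The next in order were SCAFFOLD1432 with 63 mCpGs of 97 covered CpGs (64.9%), SCAFFOLD2467 with 41 of 65 (63.1%), SCAFFOLD2075 with 51 of 90 (56.7%) and SCAFFOLD1109 with 100 of 186 (53.8%). SCAFFOLD938 had 61 of 119 (51.3%), SCAFFOLD4984 had 35 of 74 (47.3%) and SCAFFOLD2950 had 22 of 55 (40%). All 10 had fewer than 3 CpG sites per 100 bp, between 1.63 on SCAFFOLD2467 and 2.95 on SCAFFOLD5124. Neighbors in this order were not separable by their intervals: that of SCAFFOLD2950, 28.1% to 53.2%, still overlaps that of SCAFFOLD1109, 46.6% to 60.8%.

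Methylation on these scaffolds lay in mCpG clusters, strings of mCpGs no more than 500 bp apart that stop where 3 successive covered CpGs are unmethylated. A cluster had to hold 4 or more covered CpGs, over 80% of them mCpGs, with over 40% of reads methylated. On SCAFFOLD5124 1 cluster ran between positions 1017 and 5800, with 84 mCpGs among 90 covered CpGs. The 30 covered CpGs before it, between positions 29 and 908, had 0 methylated reads of 572, which allows up to 0.524%. The unmethylated stretch thus gave way to the methylated one between positions 908 and 1017.

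SCAFFOLD2467 showed the same arrangement at its other end. Its cluster ran between positions 59 and 4415, with 41 mCpGs among 42 covered CpGs, and the 21 covered CpGs after it had 0 methylated reads of 482, which allows up to 0.622%. On SCAFFOLD2950 the 33 covered CpGs after its cluster had 1 methylated read of 797. On SCAFFOLD5034, 59 of 61 covered CpGs between positions 815 and 4371 were mCpGs, and the 21 covered CpGs after them had 3 methylated reads of 596.

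Not every stretch beside a cluster was free of methylation. The 10 covered CpGs before the clusters of SCAFFOLD2075 held 2 mCpGs and 64 methylated reads of 206 (31.1%), and the 8 before those of SCAFFOLD1109 held 3 mCpGs and 82 of 265 (30.9%). On SCAFFOLD1432, 35 of 656 reads (5.34%) were methylated before the clusters and 28 of 282 (9.93%) after them.

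SCAFFOLD1109, 11419 bp long, carried 4 clusters, with 45 mCpGs of 48 covered CpGs at positions 560 to 3876, 9 of 9 at 6614 to 6906, 16 of 16 at 7594 to 8973 and 27 of 27 at 9566 to 11172. Between the first and the second of them lay 77 covered CpGs, at positions 4078 to 6207, with 3 methylated reads of 2384 (0.126%). Methylated and unmethylated stretches thus alternated within a single short scaffold. SCAFFOLD797 had the most mCpGs of any short scaffold, 109 of 322 covered CpGs, in 5 clusters. There the 87 covered CpGs after the last cluster had 4 methylated reads of 2945 (0.136%).

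**Figure D3:**
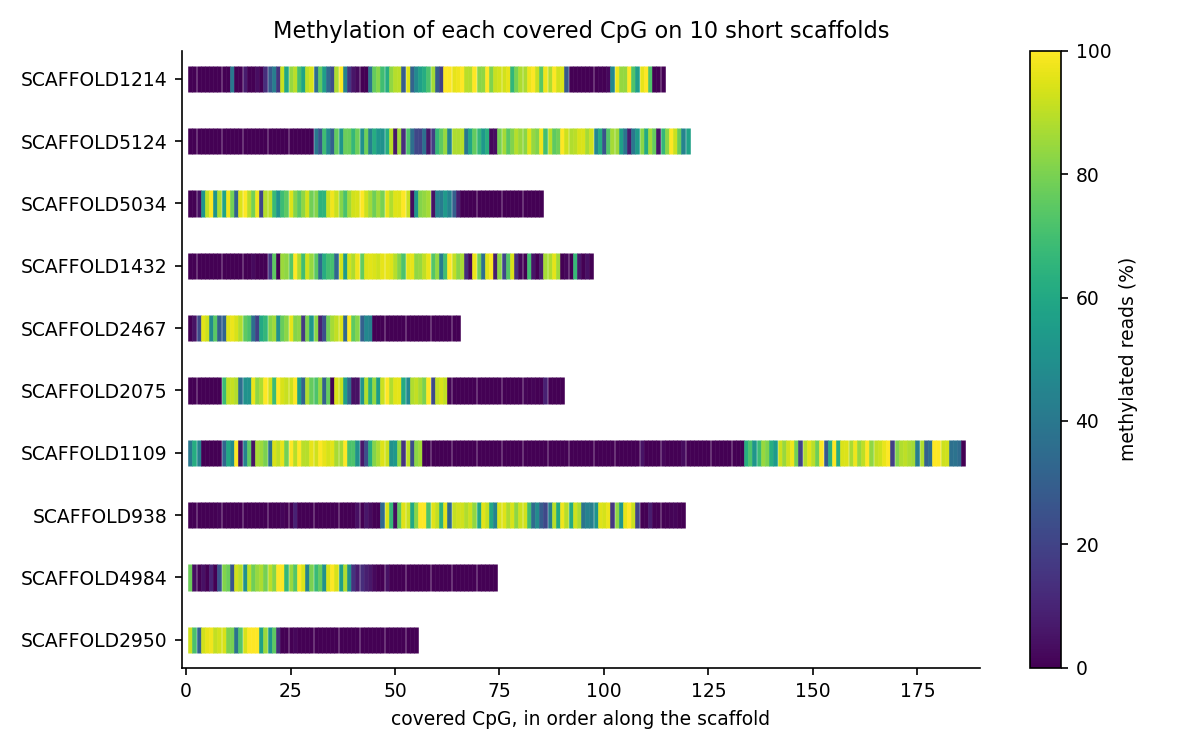
Methylated reads (percent, color scale) at each covered CpG, in order along the scaffold (horizontal axis, rank of the covered CpG), on the 10 short scaffolds with the highest share of mCpGs among those with 50 or more covered CpGs. Most methylated CpGs stand in blocks, with a few unmethylated CpGs among them (84 of 90 covered CpGs in the cluster of SCAFFOLD5124 are mCpGs), beside unmethylated blocks, such as the 30 covered CpGs without a methylated read at the start of SCAFFOLD5124 and the 77 in the middle of SCAFFOLD1109 with 3 methylated reads of 2384.

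A further 9 short scaffolds had more than 50% mCpGs but fewer than 50 covered CpGs; they are named here after their values were seen. SCAFFOLD3082, 1391 bp long, was the single short scaffold on which every covered CpG was an mCpG, 21 of 21 (84.5% to 100%). Starting at position 297, the first 8 of its CpGs had 72 methylated reads of 96, 58 of 66, 17 of 18, 52 of 53, 34 of 48, 41 of 48, 22 of 46 and 43 of 43. Its lowest values lay at position 1035, with 24 of 86 reads, and at positions 1268 and 1270, with 9 of 44 and 14 of 46. Methylation on SCAFFOLD3082 was thus present throughout but uneven from CpG to CpG, between 20.5% and 100%.

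SCAFFOLD2949, 2386 bp long, held 20 mCpGs among 23 covered CpGs (87.0%, 67.9% to 95.5%). Its first covered CpGs were unmethylated or nearly so, with 0 of 32 reads at position 53, 1 of 23 at 271 and 3 of 42 at 363. Position 518 had 6 of 10 methylated reads, and from position 934 the next 6 CpGs had 36 of 66, 22 of 26, 24 of 29, 33 of 35, 45 of 50 and 12 of 27. A single CpG inside the methylated stretch, at position 1611, had 6 of 41. The block is complete in the sense that no covered CpG past position 363 was below 10% methylated reads.

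The other 7 were SCAFFOLD1505 with 32 of 42 covered CpGs methylated, SCAFFOLD1595 with 26 of 36, SCAFFOLD2415 with 18 of 26, SCAFFOLD4634 with 18 of 27, SCAFFOLD5342 with 23 of 36, SCAFFOLD2320 with 28 of 49 and SCAFFOLD2605 with 12 of 23. All 17 short scaffolds above 50% mCpGs carried at least 1 cluster. Inside their clusters 726 of 752 covered CpGs (96.5%) were mCpGs, and outside them 11 of 407 (2.70%). In the 113 pieces above 50%, 2575 of 2728 covered CpGs (94.4%) inside clusters were mCpGs and 426 of 2070 (20.6%) outside, where 106 of the 113 held a cluster. Of the 422 non-methylated covered CpGs on the 17 short scaffolds, 357 (84.6%, 80.8% to 87.7%) had no methylated read, against 73.3% (71.3% to 75.3%) in the 113 pieces. A CpG with fewer reads is more likely to show no methylated read. Median mean depth was 23.1 reads per CpG site on the 17 short scaffolds and 28.9 in the 113 pieces. The part of depth in this difference was not tested.

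Over all short scaffolds, 96 mCpG clusters were called on 73 scaffolds (3.40%, 2.72% to 4.26%), against 4446 clusters on 14.6% of pieces. This is 6.92 clusters per 1000000 bp on short scaffolds and 35.8 in pieces. A single cluster was found on 58 of the 73 scaffolds, 2 clusters on 10, 3 on 3, 4 on 1 and 5 on 1. Clusters were thus fewer per length of sequence on short scaffolds. They can be called only from covered CpGs, so this rate also depends on how many sites could be scored. Short scaffolds had 3.76 CpG sites per 100 bp, 42.9% of them covered, and pieces had 6.75, 60.8% of them covered.

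The median cluster spanned 1229.5 bp (middle 50%, 769 to 2212.75 bp) with 20.5 mCpGs on short scaffolds, and 925 bp (582.25 to 1327 bp) with 14 mCpGs in pieces. Both the count and this length depend on the gap allowed. With gaps of at most 200 bp there were 160 clusters on 72 short scaffolds and 5932 in pieces, or 11.5 per 1000000 bp on short scaffolds and 47.8 in pieces, and the median spanned 480.5 bp on short scaffolds and 444 bp in pieces. The difference in length was thus small at that gap. At the gap of 500 bp, the longest cluster spanned 5105 bp on a short scaffold and 5584 bp in a piece. The median cluster took up 18.1% of its short scaffold, against 9.36% of its piece. Clusters held 2153 of 2461 mCpGs (87.5%, 86.1% to 88.7%) on short scaffolds and 78.6% (78.3% to 78.9%) of the mCpGs in pieces.

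Within 500 bp of a scaffold end lay 35 of the 96 clusters (36.5%, 27.5% to 46.4%), against 32.5% of those in pieces, where the ends are cuts set here. The difference was within counting error. A cluster that runs off a scaffold end is seen only in part, which holds for the cut ends of pieces as well.

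CpG density inside clusters was low and much alike in both sets. It was 1.62 CpG sites per 100 bp inside the clusters of short scaffolds and 1.76 inside those of pieces. On the rest of the cluster-bearing scaffolds it was 3.24 on short scaffolds and 5.42 in pieces. On scaffolds without a cluster it was 3.81 on short scaffolds and 7.26 in pieces. The contrast in CpG density between clusters and their surroundings was thus narrower on short scaffolds.

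Depth was greater inside clusters, and fewer sites were unread there. In part this follows from the definition, since a cluster is called only from CpGs with at least 10 reads. Mean depth there was 35.6 reads per CpG site on short scaffolds and 31.7 in pieces, and 0.682% of the CpG sites were unread on short scaffolds and 0.214% in pieces. Outside clusters on the same scaffolds, mean depth was 17.9 reads on short scaffolds and 18.6 in pieces, and 14.7% of CpG sites were unread on short scaffolds and 1.31% in pieces. Because the cluster call itself selects read sites, these values do not show whether depth and methylation go together along a scaffold. The part of depth in the methylation calls was not tested.

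Single mCpGs had low levels in both sets. On the 68 short scaffolds with exactly 1 mCpG, its median level was 13.3% methylated reads, just past the limit of 10%, and 62 of the 68 (91.2%, 82.1% to 95.9%) were at 25% or below. On the 1166 pieces with exactly 1 mCpG, the median was 14.3%, and 1045 of the 1166 (89.6%, 87.7% to 91.2%) were at 25% or below. On the 74 short scaffolds with more than 10% mCpGs, the median mCpG was at 81.0%, against 73.9% in the corresponding pieces.

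Of all mCpGs, 93.6% (92.5% to 94.5%) on short scaffolds had an mCpG as a neighboring covered CpG, against 89.9% (89.7% to 90.1%) in pieces. The median mCpG had 79.2% methylated reads on short scaffolds and 72.2% in pieces. More than 75% methylated reads were found at 54.8% of mCpGs on short scaffolds and at 45.6% of those in pieces.

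Levels were set side by side within classes of depth, since depth limits how finely a level can be read. At mCpGs with 20 to 29 reads the median was 82.1% on short scaffolds (517 mCpGs) and 75% in pieces. With 30 to 49 reads it was 80% on short scaffolds (697 mCpGs) and 71.0% in pieces. With 50 reads or more it was 74.8% on short scaffolds (636 mCpGs) and 65.2% in pieces. The mCpGs of short scaffolds, although fewer, were more highly methylated at each of these depths.

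Unread CpGs were the clearest property of the short scaffolds. They made up 22.7% (22.6% to 22.9%) of CpG sites on short scaffolds and 1.09% (1.09% to 1.10%) in pieces, although both had to hold 20 covered CpGs. Covered CpGs made up 42.9% of the sites on short scaffolds and 60.8% in pieces. More than 20% of the sites were unread on 718 short scaffolds (33.5%, 31.5% to 35.5%), against 0.853% of pieces. No site was unread on 206 short scaffolds (9.61%), against 45.8% of pieces.

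Unread sites came in runs. On short scaffolds 87.0% of them stood in runs of 5 or more unread CpGs in a row, and the longest run held 381 CpG sites. In pieces 63.1% stood in such runs and the longest held 158. Runs of 50 or more held 26.5% of unread CpGs on short scaffolds and 7.58% in pieces. Whole stretches of short scaffolds, and not scattered sites, were thus without reads.

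SCAFFOLD1316, 15538 bp long, had the largest share of unread sites, 763 of 806 (94.7%), at a mean depth of 0.560 reads per CpG site. It passed the filter through 21 covered CpGs, the deepest with 38 reads. SCAFFOLD577 had 521 of 570 sites unread (91.4%) and SCAFFOLD865 had 642 of 713 (90%). Both carried sites of high depth beside the unread ones, up to 160 reads on SCAFFOLD577 and 150 on SCAFFOLD865. SCAFFOLD786, with a mean depth of 0.970, and SCAFFOLD1330, with 1.0 reads per CpG site, were the next shallowest after SCAFFOLD1316.

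The unread share was larger on longer scaffolds among the short ones. It was 11.9% below 2000 bp, 19.1% between 2000 and 5000 bp, 24.0% between 5000 and 10000 bp and 24.4% from 10000 bp upward, against 0.938%, 1.11%, 1.09% and 1.10% in pieces of those lengths. Across the 2144 short scaffolds, Spearman's rho between length and unread share was 0.27, as a description over scaffolds that share 1 library. Across the 18288 pieces it was 0.374, so a rank correlation with length was not particular to short scaffolds. A longer scaffold can pass the filter of 20 covered CpGs with a smaller share of its sites read, and the part of this in the result was not tested.

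Unread sites were more frequent near scaffold ends, but they were not confined to them. Within 25 bp of the nearer end 46.9% (45.7% to 48.1%) of sites were unread on short scaffolds, then 35.3% between 25 and 50 bp and 28.6% between 50 and 75 bp, the length of the trimmed reads. Farther in it was 25.5% between 75 and 150 bp, 23.6% between 150 and 300 bp, 20.4% between 300 and 1000 bp and 22.6% beyond. In pieces, whose ends are cuts inside longer scaffolds, it stayed between 1.03% and 1.12% at all these distances.

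Median depth followed the same course. It was 1 read per CpG site within 25 bp of the end of a short scaffold, then 3, 5, 7, 7, 8 and 7 reads in the classes farther in, and 12 reads in every class in the pieces. Sites more than 1000 bp from an end thus still had a lower median depth on short scaffolds, 7 reads against 12 in pieces.

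**Figure D4:**
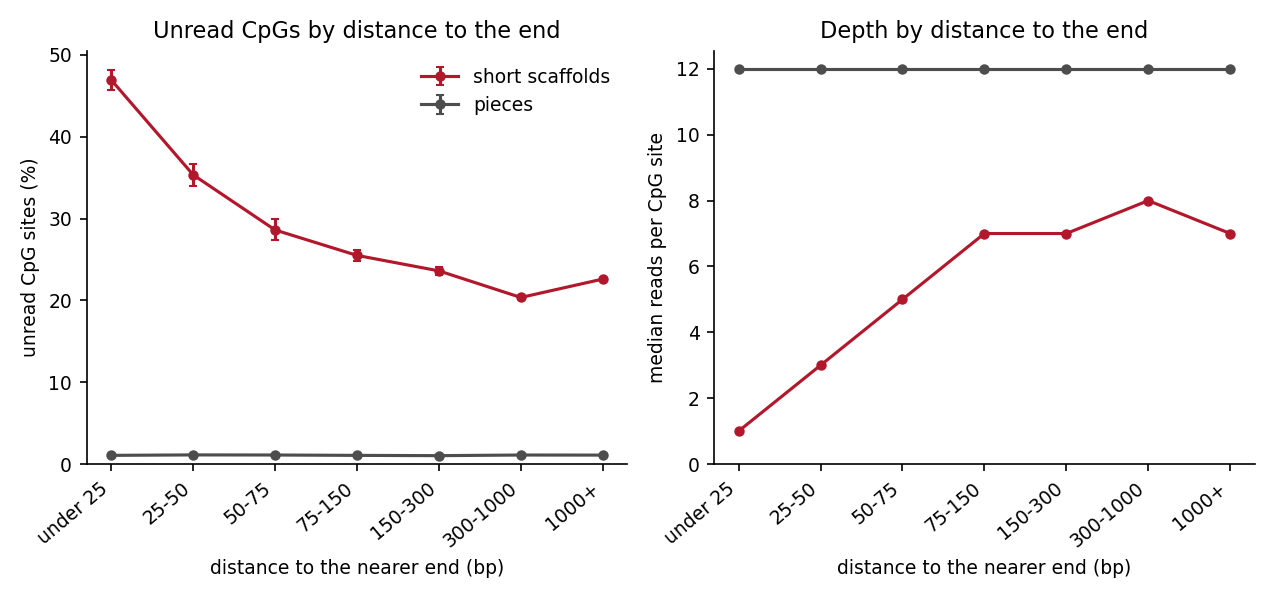
Left, share of unread CpG sites (percent, with 95% Wilson intervals) and right, median reads per CpG site, by distance to the nearer end in bp, for short scaffolds (red) and pieces of long scaffolds (gray). On short scaffolds 46.9% of sites within 25 bp of an end and 22.6% of sites beyond 1000 bp are unread, while the pieces stay between 1.03% and 1.12%.

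Depth spread more widely over the short scaffolds. The median of the scaffold means was 15.0 reads per CpG site on short scaffolds (middle 50%, 10.5 to 20.9) and 16.9 in pieces (14.2 to 20.7). Over read sites only, the mean was 20.5 reads on short scaffolds and 17.0 in pieces, while the median was 11 reads on short scaffolds and 12 in pieces. Mean depth was under 5 reads on 120 short scaffolds (5.60%), against 0.0601% of pieces, and over 50 reads on 37 short scaffolds (1.73%, 1.25% to 2.37%), against 0.224% of pieces. Sites deeper than 100 reads made up 0.935% of the sites on short scaffolds and 0.298% of those in pieces.

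The deepest scaffold owed its depth to few sites. SCAFFOLD2436, 1154 bp long with 34 CpG sites, had a mean of 1014 reads per CpG site but a median of 42. Its 6 sites at positions 1009, 1070, 1078, 1080, 1100 and 1104 had 8296, 7519, 5447, 5399, 3608 and 3020 reads, whereas the CpGs on either side, at 914 and 1154, had 39 and 17. The 10 deepest sites held 97.6% of its reads. At these 6 sites 46 of 33289 reads were methylated, and the scaffold had no mCpG.

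SCAFFOLD1951, 9825 bp long, had a mean of 467 reads and a median of 3. Of its 520 CpG sites, 52 had more than 1000 reads and 240 (46.2%) had none, so very deep and unread stretches stood side by side. Its 225 covered CpGs had 307 methylated reads of 242409 (0.127%) and no mCpG. SCAFFOLD2393, 712 bp long, had a mean of 247 reads, with 18 of its 21 CpG sites above 100, and 10 of 5177 reads methylated. The 3 deepest short scaffolds were thus all unmethylated at great depth.

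**Figure D5:**
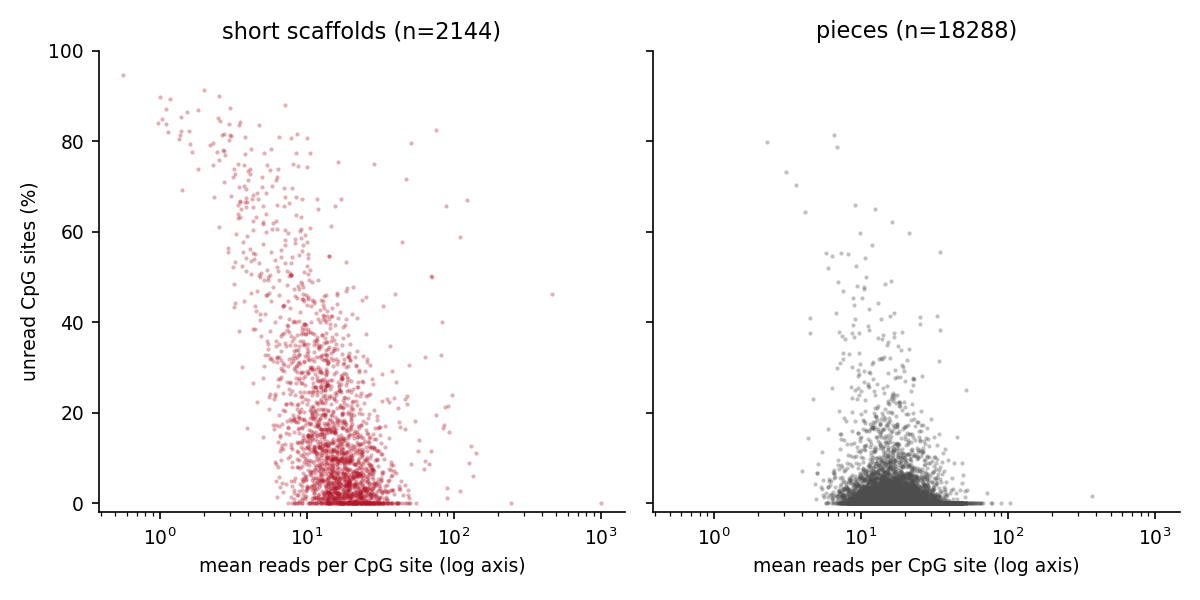
Each point is a short scaffold (left, red) or a piece of a long scaffold (right, gray), by its mean reads per CpG site (log axis) and its share of unread CpG sites in percent. Short scaffolds spread over the whole range of unread shares, up to 94.7%, and 718 of 2144 lie above 20%, against 0.853% of pieces.

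Between mean depths of 5 and 50 reads, the share of mCpGs rose with depth on short scaffolds. In pieces it was highest with 20 to 50 reads, while the intervals for 5 to 10 and 10 to 20 reads overlap. With a mean depth of 20 to 50 reads, 2.30% (2.19% to 2.42%) of covered CpGs on 554 short scaffolds were mCpGs, against 4.65% in pieces. With 10 to 20 reads it was 0.720% (0.676% to 0.766%) on 1068 short scaffolds and 0.906% (0.897% to 0.916%) in pieces. With 5 to 10 reads it was 0.321% (0.255% to 0.405%) on 364 short scaffolds and 0.865% (0.792% to 0.944%) in pieces. Short scaffolds were below pieces in each of these classes. CpG density fell as depth rose over these classes. From 5 to 10 up to 20 to 50 reads, its medians were 4.69, 3.82 and 2.91 CpG sites per 100 bp on short scaffolds. In pieces they were 9.35, 7.81 and 4.52. Depth and CpG density were not separated here, and the part of density in the rise was not tested. Under 5 reads, 7 of 4776 covered CpGs (0.147%) on 120 short scaffolds were mCpGs, against 0 of 344 in 11 pieces, which allows up to 0.872%, so that no order can be read there. From 50 reads upward it was 0.505% (0.301% to 0.845%), or 14 of 2775 covered CpGs, on 38 short scaffolds and 9.35% (8.06% to 10.8%) in 41 pieces.

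The well-read short scaffolds alone gave the same order. With fewer than 5% unread CpGs, 654 short scaffolds had 740 mCpGs among 78611 covered CpGs, or 0.941% (0.876% to 1.01%), against 1.65% in 17348 pieces. Of these 654, 30 (4.59%) had more than 10% mCpGs, against 8.96% of the pieces. Their median CpG density was 3.85 per 100 bp on short scaffolds and 7.24 in pieces. Both the lower methylation and the lower CpG density were thus present where nearly every CpG had at least 1 read. Methylation was scored only at covered CpGs. On short scaffolds these were 65.9% of sites with under 1% unread CpGs and 58.6% with 1% to 5%, against 62.4% and 57.1% in pieces.

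The share of mCpGs was lowest on the short scaffolds with the most unread sites. It was 0.789% on the 265 short scaffolds with under 1% unread sites, 1.0% on the 389 with 1% to 5%, 1.23% on the 770 with 5% to 20% and 1.28% on the 521 with 20% to 50%. On the 199 with more, it was 0.340% (0.242% to 0.477%). In pieces with matching unread shares it was 1.62%, 1.77%, 2.88% and 3.34%, and 0.227% (0.0773% to 0.666%) in the 21 pieces of the last class, where both intervals overlap.

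Long unmethylated short scaffolds show how far the zero level extends. SCAFFOLD1791, 18390 bp long, had 615 covered CpGs and no mCpG, which allows up to 0.488%, with 15 of 14800 reads unconverted (0.101%). SCAFFOLD2129 had 552 covered CpGs without an mCpG and 16 of 11642 reads unconverted (0.137%). SCAFFOLD1669 had 532 and 19 of 13638 (0.139%). All 3 values lie at or under the 0.147% of unconverted reads at non-methylated covered CpGs over all short scaffolds. Because these scaffolds were chosen for having no mCpG, all their covered CpGs belong to that set. Nearness to its value is therefore no independent check.

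The scaffolds on either side of the length limit differed in depth. The longest short scaffold was SCAFFOLD1186 at 19954 bp, with 413 covered CpGs, a mean depth of 17.5 reads, 10.1% unread CpGs and no mCpG. The first one past the limit was SCAFFOLD800 at 20053 bp, with 27 covered CpGs, a mean depth of 0.791 reads, 87.1% unread CpGs and no mCpG. With exactly 20 covered CpGs there were 67 scaffolds, with a median depth of 11.3 reads and 2 with an mCpG. With 19 covered CpGs there were 52, with a median depth of 11.8 reads and 4 with an mCpG.

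Most scaffolds under 20000 bp were not well enough read to enter. Of 5162 such nuclear scaffolds, 2144 (41.5%, 40.2% to 42.9%) held 20 covered CpGs, against 90.4% (90.1% to 90.7%) of pieces cut with the lengths of all 5162. Of the 3018 left out, 242 had fewer than 20 CpG sites at all, 1383 had no covered CpG and 929 had no read at any CpG site. The values given above thus describe the better-read part of the short scaffolds.

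SCAFFOLD3120 was among those left out. The study lists a candidate non-CpG methylation site on it, but marks that site as lying in a CpG context, and so not as non-CpG methylation. The study puts sites so marked down to errors in the reference or to paralogous sequences. Whether reads from such sequences entered the levels given here was not tested. SCAFFOLD3120 had 18 covered CpGs over 1047 bp and held 9 mCpGs, all between positions 168 and 589. There the CpGs at 168, 178, 294, 346 and 427 had 9 of 31, 22 of 33, 11 of 46, 22 of 37 and 19 of 37 methylated reads, and the one at 437 had 0 of 40. From position 701 on, 1 of 50 reads at the first CpG and 0 reads at all later CpGs were methylated. Like SCAFFOLD2949 and SCAFFOLD5124, it thus carried a methylated and an unmethylated block.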

How the data were processed

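DNA of 1 pool of 50 adult females was sequenced by WGBS-seq in 2 lanes. The authors called bases with CASAVA 1.7, trimmed reads to 75 bp, aligned them with BWA (version not given in the sources used here) with up to 4 mismatches to in silico converted scaffolds, both strands included, and kept unique alignments without indels. A read that aligns equally well at several places is thus not counted. The deposited values are raw counts of reads with an unconverted C and with a T per CpG site, summed over lanes and strands and not normalized. The scaffold release is not given in the sources used here, and positions are those of the deposited counts.

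Covered CpGs had at least 10 reads and mCpGs more than 10% methylated reads, as in the study. Scaffolds over 1000000 bp were cut in scaffold-number order into pieces with the lengths of the short scaffolds taken in turn. Since 1 pool was sequenced under 1 condition, no test was made. Scaffolds were named by rule: the 10 with the highest share of mCpGs among those with 50 or more covered CpGs, the 3 with the most mCpGs, the 3 deepest and 3 shallowest, the 3 highest and 3 lowest in CpG density, the 3 with the largest unread share, the 3 with the most covered CpGs and no mCpG, those with a candidate non-CpG site, and those next to the limits. The scaffolds, lists and cluster criteria were chosen with earlier results of these data known. The counting, cutting and cluster steps were tested on simulated data. Alternatives covered the coverage minimum, the mCpG threshold, the length limit, the origin of the pieces, very deep sites and the cluster gap. Analyses ran in Python 3.11.15 (matplotlib 3.10.9, SciPy 1.17.1, pandas 2.3.3, NumPy 2.4.6). No sequence is shown because no genome of this build was used.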

Additional observations from a re-analysis of the deposited data

Results flagged for a closer look

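The 3018 nuclear scaffolds under 20000 bp with fewer than 20 covered CpGs entered no comparison above, yet 208 mCpGs were found on 37 of them, among 14569 covered CpGs (1.43%, 1.25% to 1.63%). This stood out as methylation in scaffolds outside the comparisons. Their share of mCpGs lay above the 1.10% (1.06% to 1.14%) of the 2144 short scaffolds analysed, and 5539 of 462762 reads at their covered CpGs were methylated (1.20%). Among these scaffolds, 80.1% of CpG sites were unread and the median scaffold had 0.899 reads per CpG site.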

How the results depend on the processing

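Of 37 settings computed for the pieces, short scaffolds lay on the same side of them in 36. The origin from scaffolds over 500000 bp and the reverse order of lengths change the pieces only. In these settings the pieces were set against the unchanged values of the short scaffolds. The exception was the median mean depth over covered CpGs only, at 27.9 reads on short scaffolds and 23.7 in pieces. The share of mCpGs on short scaffolds and in pieces was 1.49% and 2.58% at a minimum of 20 reads, 0.991% and 1.5% with mCpGs above 20%, 0.814% and 1.18% above 50%, and 0.941% and 1.65% with under 5% unread CpGs. In pieces alone it was 1.53% at a minimum of 5 reads, 1.64% with 50 or more covered CpGs, 1.66% with a length limit of 10000 bp and 1.58% from scaffolds over 500000 bp. The methylation percentage on short scaffolds and in pieces was 0.942% and 1.52% at 5 reads, 1.10% and 2.06% at 20 reads, 0.892% and 1.23% as the mean of the sites' own percentages, 0.903% and 1.63% with a limit of 10000 bp, and 0.938% and 1.63% with under 5% unread CpGs. On short scaffolds it was 1.13% without the 1313 sites above 190 reads. In pieces it was 1.61% with 50 or more covered CpGs, 1.55% from scaffolds over 500000 bp and 1.66% with lengths in reverse order. Unread CpGs on short scaffolds and in pieces were 27.3% and 2.54% when 1 read also counted as unread, 18.0% and 1.05% with 50 or more covered CpGs, and 20.9% and 1.06% with a limit of 10000 bp. In pieces they were 1.48% from scaffolds over 500000 bp and 1.08% in reverse order. CpG sites per 100 bp on short scaffolds and in pieces were 3.78 and 6.86 between the first and the last CpG, 3.70 and 6.80 with 50 or more covered CpGs, 3.87 and 6.79 with a limit of 10000 bp, 4.11 and 6.95 outside CpG-free stretches, and 3.92 and 6.84 with under 5% unread CpGs, and 6.41 in pieces from scaffolds over 500000 bp. Depth on short scaffolds and in pieces was 9 and 12.5 reads as the median of site medians, and it was 16.1 reads on short scaffolds with 50 or more covered CpGs and 17.0 in pieces from scaffolds over 500000 bp. With 50 or more covered CpGs, 46 short scaffolds had over 10% mCpGs and 8 had over 50%, since fewer scaffolds enter. With mCpGs above 50%, 11 short scaffolds had over 50% mCpGs. With a gap of 200 bp there were 160 clusters in place of 96. For the other moves the cause was not tested. The pieces with 50 or more covered CpGs, the share of pieces over 50% mCpGs in other settings, the clusters of pieces and the cluster lengths at a gap of 200 bp, the density outside CpG-free stretches and the limit of 5% unread CpGs were chosen after seeing the data. No paired analysis was possible because both lanes are 1 pool and are summed in the counts. The counts hold no replicate, and 57.1% of the CpG sites of short scaffolds had fewer than 10 reads and were not scored at that minimum.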
